A study of Homo sapiens with 4 samples.

Results

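The thioredoxin and peroxiredoxin system of ES2 ovarian cancer cells was examined after treatment with liquiritigenin (Liq), through 10 genes chosen by symbol out of 23228 in the count tables. They were the thioredoxin reductases TXNRD1 and TXNRD2, the thioredoxins TXN and TXN2, the thioredoxin-binding protein TXNIP, sulfiredoxin SRXN1 and the peroxiredoxins PRDX1, PRDX2, PRDX5 and PRDX6. ES2 is a long-established line grown from a human ovarian cancer, and the plant flavanone Liq was used in the study as an agonist of estrogen receptor beta. Both groups were grown in RPMI-1640 without phenol red, with 5% charcoal-treated serum, and were exposed for 24 h either to vehicle or to 100 μM Liq. The dose comes from the methods of the study, and each group had 2 samples of total RNA sequenced as TruSeq libraries. Nothing in the sample descriptions says that the 2 samples of a group came from separate cultures, so the p-values measure the spread between these samples, which may be technical.

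Thioredoxins are small proteins that reduce disulfide bonds in other proteins, and thioredoxin reductases, which are selenoproteins, restore them with electrons from NADPH. Peroxiredoxins remove hydrogen peroxide with a reactive cysteine and most of them depend on thioredoxin, while sulfiredoxin repairs peroxiredoxins whose cysteine has been overoxidized. TXN and TXNRD1 act in the cytosol and nucleus, TXN2 and TXNRD2 in mitochondria, and TXNIP binds reduced thioredoxin and lowers glucose uptake.

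The libraries held 34573053 to 48933893 reads assigned to genes, and 35.63% to 36.23% of all tallied reads were left uncounted because they aligned to more than 1 place. Divided by its degrees of freedom, the chi-square comparing the counts of 2 libraries was 6.49 for the vehicle pair, 11.6 for the Liq pair and 60.5 to 74.7 across groups, so no sample was a copy of another. Of the carcinoma markers, KRT7 had at least 8909 counts and KRT18 at least 5996 in every sample, whereas MUC16, MSLN and EPCAM had between 0 and 3 counts. The leukocyte marker PTPRC and the T cell marker CD3E had 0 or 1 count in each sample and the monocyte marker CD14 had 3 to 11, whereas CD68, a lysosomal protein used as a macrophage marker, had 2538 to 3331. CDH5, usually an endothelial gene, had 1712 to 2239 counts with PECAM1 at 2 to 10 counts, and COL1A1 had at least 43536 counts with COL1A2 at 3 to 7. Of the 14 markers of other cell types 4 were tested, and COL1A1 and ACTA2 rose (ACTA2 from 3.42 to 6.18 CPM), while among 5 tested carcinoma markers KRT7 rose and PAX8, WT1 and KRT18 fell. The part of such shifts in the results given here was not tested.

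All 10 genes were expressed well above the filter on low counts, and the lowest count of any of them in any sample was 1125. Levels are given as CPM, which are read counts scaled to a common library size with TMM factors, and each change is the log2 of Liq over vehicle with its standard error (SE). P-values came from edgeR's quasi-likelihood test over 13546 genes with Benjamini-Hochberg adjustment, and a gene passed at an adjusted p-value under 0.05. TXNRD1 rose, TXNIP, TXNRD2 and PRDX6 fell, and the other 6 did not pass. Among all tested genes 24.0% passed, 12.6% upward and 11.3% downward, and the 4 of 10 is given as a description. With a change of at least 1.5-fold added to the rule, TXNRD1 (upward) and TXNIP (downward) remained, against 6.45% of all tested genes (4.29% upward and 2.16% downward). Of the 10 genes, 8 had Liq samples lying wholly on one side of the vehicle samples, which was also true of 61.7% of tested genes. The median log2 fold change of the 10 was -0.15, compared with 0.0062 for all tested genes and -0.05 for the 5719 genes whose mean level was at least 39.9 CPM, the level of the lowest of the 10. Of those 5719 genes 499 rose and 968 fell (25.7% in all), and 1.91% changed by 1.5-fold.

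**Figure D1:**
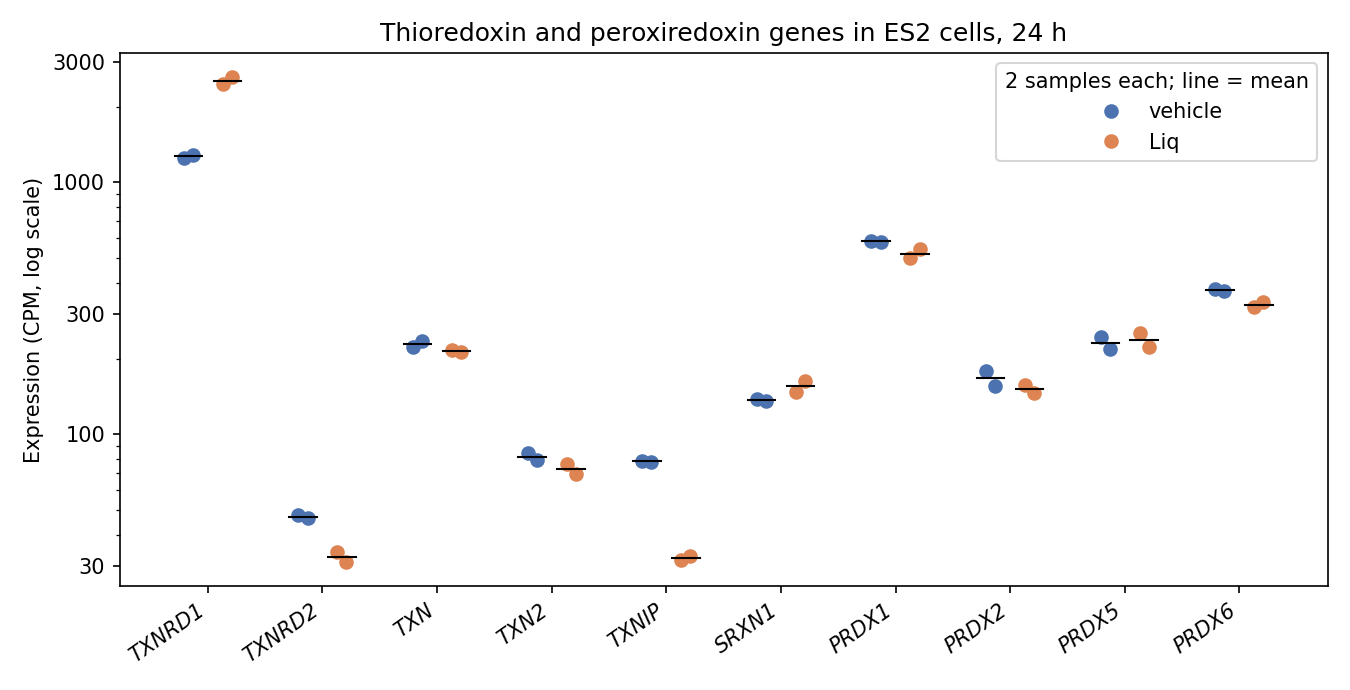
Expression of the 10 genes in each sample, in CPM on a log axis, with 2 vehicle samples (blue) and 2 Liq samples (orange) per gene and a black line at each mean. TXNRD1 was at 1247 and 1291 CPM in vehicle and at 2452 and 2617 CPM in Liq, TXNIP and TXNRD2 were lower in both Liq samples, and the remaining genes lay close together in the 2 groups.

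TXNRD1, the cytosolic thioredoxin reductase, showed the clearest increase. It lies on chromosome 12 from 104609557 to 104744085 (GRCh37, plus strand, GENCODE annotation) and is protein coding, with 17 exons in its canonical transcript. Its counts were 51286 and 48328 with vehicle, and 87208 and 131323 with Liq, which corresponded to 1247 and 1291 CPM in vehicle and 2452 and 2617 CPM in Liq. Both Liq samples thus stood far above both vehicle samples, and the distance between the groups was many times that within them. The fold change was 2.00 (95% confidence interval 1.84 to 2.17), and the p-value ranked 16 of 13546 (adjusted p = 6.341e-13 from edgeR). The RNA came from whole cultures, so a change in a share of the cells and a change in every cell cannot be told apart here.

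TXNRD1 is a well-known target of NRF2, a transcription factor that binds antioxidant response elements, and its upstream sequence is shown to let the element be seen beside the change. RefSeq promoter windows, each reaching from 250 bases before to 50 bases after an annotated start in the GRCh38.p14 assembly, were found for 7 of the 10 genes (12 windows). TXN2, PRDX1 and PRDX6 had no window in that table. The core TGACNNNGC was searched on both strands, and 13.3% of 35116 windows of all genes held it. Both windows of TXNRD1 did, and it was absent from the 10 windows of the other 6 genes. In the window at the upstream start it began at position -99 from the start, and a second match, on the opposite strand, ran across the start itself and is not marked. At the internal start it began at position -102 on the opposite strand, where it reads TGACAAAGC. This internal window is counted as untranslated exon in some TXNRD1 transcripts, so it is printed only as the match with 10 bases on each side. The upstream window overlaps no annotated exon. Capitals mark the core, and positions are those where the sequence was found, at 1 place each, in GRCh37 on the plus strand.
TXNRD1 upstream start, chr12:104609307-104609556: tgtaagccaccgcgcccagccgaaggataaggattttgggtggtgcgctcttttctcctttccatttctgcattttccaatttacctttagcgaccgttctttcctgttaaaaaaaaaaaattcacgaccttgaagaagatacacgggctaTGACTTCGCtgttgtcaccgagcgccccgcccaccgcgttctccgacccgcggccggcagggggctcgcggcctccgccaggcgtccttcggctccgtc
TXNRD1 internal start, chr12:104680698-104680726: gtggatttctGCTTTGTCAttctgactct
These counts are per gene, so reads from the 2 starts were not separated, and a match is a description of the letters and not evidence of binding in ES2 cells.

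TXNRD2, the mitochondrial reductase, moved the opposite way to TXNRD1. It lies on chromosome 22 from 19863040 to 19929343 (GRCh37, minus strand), with 18 exons in its canonical transcript. Its level was 47.7 and 46.7 CPM in vehicle and 34.0 and 31.2 CPM in Liq, from 1962, 1747, 1210 and 1565 counts. The groups did not overlap, and the vehicle samples were close to each other. The log2 change was -0.54 with an SE of 0.087 (adjusted p = 5.111e-05 from edgeR), or 0.690-fold with a 95% confidence interval of 0.610 to 0.781, so it fell short of the 1.5-fold threshold.

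Neither thioredoxin passed the test. TXN (chromosome 9 from 113006090 to 113018787, minus strand), the cytosolic form, was at 222 and 234 CPM in vehicle and at 216 and 213 CPM in Liq. Its log2 change was -0.089 with an SE of 0.068 (adjusted p = 0.3696 from edgeR) and a 95% confidence interval for the fold change of 0.853 to 1.04. A doubling such as that of TXNRD1 lay outside this interval. TXN2 (chromosome 22 from 36863093 to 36877687, minus strand), the mitochondrial form, was at 84.0 and 79.1 CPM in vehicle and at 76.2 and 69.6 CPM in Liq. Both Liq samples were below both vehicle samples, but the log2 change of -0.16 (SE 0.079) had an adjusted p of 0.1367 from edgeR, and 0.02984 without Liq replicate 1. TXN has 7 annotated pseudogenes named after it, PRDX2 has 4, and TXN2, PRDX1 and PRDX5 have 1 each. Reads shared with such copies are not counted.

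TXNIP, the inhibitor of thioredoxin and a member of the alpha-arrestin family, fell more than any other of the 10 genes. It lies on chromosome 1 from 145438490 to 145442635 (GRCh37, plus strand). Its counts were 3238 and 2917 in vehicle and 1125 and 1654 in Liq, or 78.8 and 77.9 CPM against 31.6 and 33.0 CPM. The samples within each group nearly coincided, and the groups stood far apart. The log2 change was -1.28 with an SE of 0.082 (adjusted p = 5.333e-12 from edgeR), a fold change of 0.413 with a 95% confidence interval of 0.367 to 0.463, and its p-value ranked 24 of 13546.

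TXNIP is known to respond to glucose through the paired factors MondoA and MLX, which bind a carbohydrate response element near its start. The 250 bases before its upstream RefSeq start are printed because they hold that element. The letters CACGNG followed after 5 bases by CACGNG, searched on both strands, were present once, beginning at position -88 from the start, and in 20 of 35116 promoter windows of all genes (0.057%). This pattern was chosen after the TXNIP sequence had been read. It is marked in capitals and the window overlaps no annotated gene.
TXNIP upstream start, chr1:145438240-145438489 (GRCh37, plus strand): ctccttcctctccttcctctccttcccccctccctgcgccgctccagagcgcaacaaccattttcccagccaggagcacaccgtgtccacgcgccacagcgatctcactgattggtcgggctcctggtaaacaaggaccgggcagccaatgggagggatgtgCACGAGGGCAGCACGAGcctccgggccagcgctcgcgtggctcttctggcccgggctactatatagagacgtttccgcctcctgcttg
Of 8 genes listed as alpha-arrestins or MondoA-MLX factors, 6 were tested, 0 rose and 1 fell, where 12.6% of all tested genes rose and 11.3% fell. MLX fell from 79.7 ± 1.1 to 63.8 ± 0.4 CPM (SD, n = 2), a log2 change of -0.32 (adjusted p = 0.003181 from edgeR), and the other 5 did not pass. ARRDC4, the alpha-arrestin closest to TXNIP in its known glucose response, had 218 and 220 counts in vehicle and 154 and 227 in Liq (log2 change -0.33 with an SE of 0.14, adjusted p = 0.08566 from edgeR). ARRDC1 had a log2 fold change of -0.15 (adjusted p = 0.323 from edgeR).

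SRXN1, the repair enzyme of peroxiredoxins and another known NRF2 target, was slightly higher in both Liq samples without passing. It lies on chromosome 20 from 627259 to 633844 (GRCh37, minus strand), and its level was 138 and 136 CPM in vehicle and 148 and 163 CPM in Liq. The log2 change was 0.18 with an SE of 0.073 (adjusted p = 0.07653 from edgeR), with a 95% confidence interval for the fold change of 1.02 to 1.26. The Liq samples differed from each other by more than the lower of them differed from the vehicle samples. Without Liq replicate 1 the log2 change was 0.25, and without Liq replicate 2 it was 0.11. With all samples kept, the call depended on the settings. Offsets following the expression level gave a log2 fold change of 0.24 (adjusted p = 0.01638 from edgeR), and upper-quartile scaling gave 0.21 (adjusted p = 0.04051 from edgeR). The replicate number as a block gave 0.18 (adjusted p = 0.01256 from edgeR). SRXN1 did not pass with RLE scaling, other filters or DESeq2.

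Changes of the peroxiredoxins among the 10 genes were small, downward except in PRDX5, and only PRDX6 passed. PRDX6 (chromosome 1 from 173446469 to 173457954, plus strand), a peroxiredoxin with a single reactive cysteine that also acts on phospholipids, was at 378 and 369 CPM in vehicle and 320 and 335 CPM in Liq. Its log2 fold change of -0.19 (SE 0.065) had an adjusted p of 0.03637 from edgeR, so it fell by the rule. That call was lost without vehicle replicate 1 (adjusted p = 0.3183), without vehicle replicate 2 (0.1953), without Liq replicate 1 (0.1167), with upper-quartile scaling (0.06969) and with offsets following the expression level (0.2536, all from edgeR). Without those samples the log2 change was -0.17, -0.20 and -0.16, close to the value from all samples, and 10.3%, 11.2% and 23.5% of all tested genes passed. Upper-quartile scaling gave -0.16 and the offsets -0.10.

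PRDX1 (chromosome 1 from 45976586 to 46008404, minus strand), the main cytosolic peroxiredoxin, was at 584 and 583 CPM in vehicle and 502 and 542 CPM in Liq. Its log2 change was -0.16 with an SE of 0.063 (adjusted p = 0.06852 from edgeR), and without Liq replicate 2 the adjusted p was 0.01957. The groups did not overlap, although the 2 Liq samples differed more than the vehicle samples. PRDX1 shares exon positions with MMACHC on the opposite strand, which measured 17.6 CPM with vehicle and 17.9 with Liq, and the strand setting of the counting is not given in the sources used here.

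PRDX2 (chromosome 19 from 12907634 to 12912614, minus strand), a cytosolic peroxiredoxin abundant in red blood cells, was at 178 and 155 CPM in vehicle and 157 and 146 CPM in Liq (log2 change -0.14 with an SE of 0.077, adjusted p = 0.1932 from edgeR). PRDX5 (chromosome 11 from 64085593 to 64089283, plus strand), found in mitochondria, peroxisomes and cytosol, was at 244 and 218 CPM in vehicle and 252 and 222 CPM in Liq (log2 change 0.036 with an SE of 0.075, adjusted p = 0.7701 from edgeR). The log2 change of PRDX2 was -0.036 without vehicle replicate 1 and -0.24 without vehicle replicate 2, and that of PRDX5 changed sign without vehicle replicate 2 or Liq replicate 1. For both genes the groups overlapped and the spread within a group was as large as the distance between groups. The 95% confidence interval of the fold change was 0.814 to 1.01 for PRDX2 and 0.921 to 1.14 for PRDX5, so changes of 1.5-fold in either direction lay outside it.

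**Figure D2:**
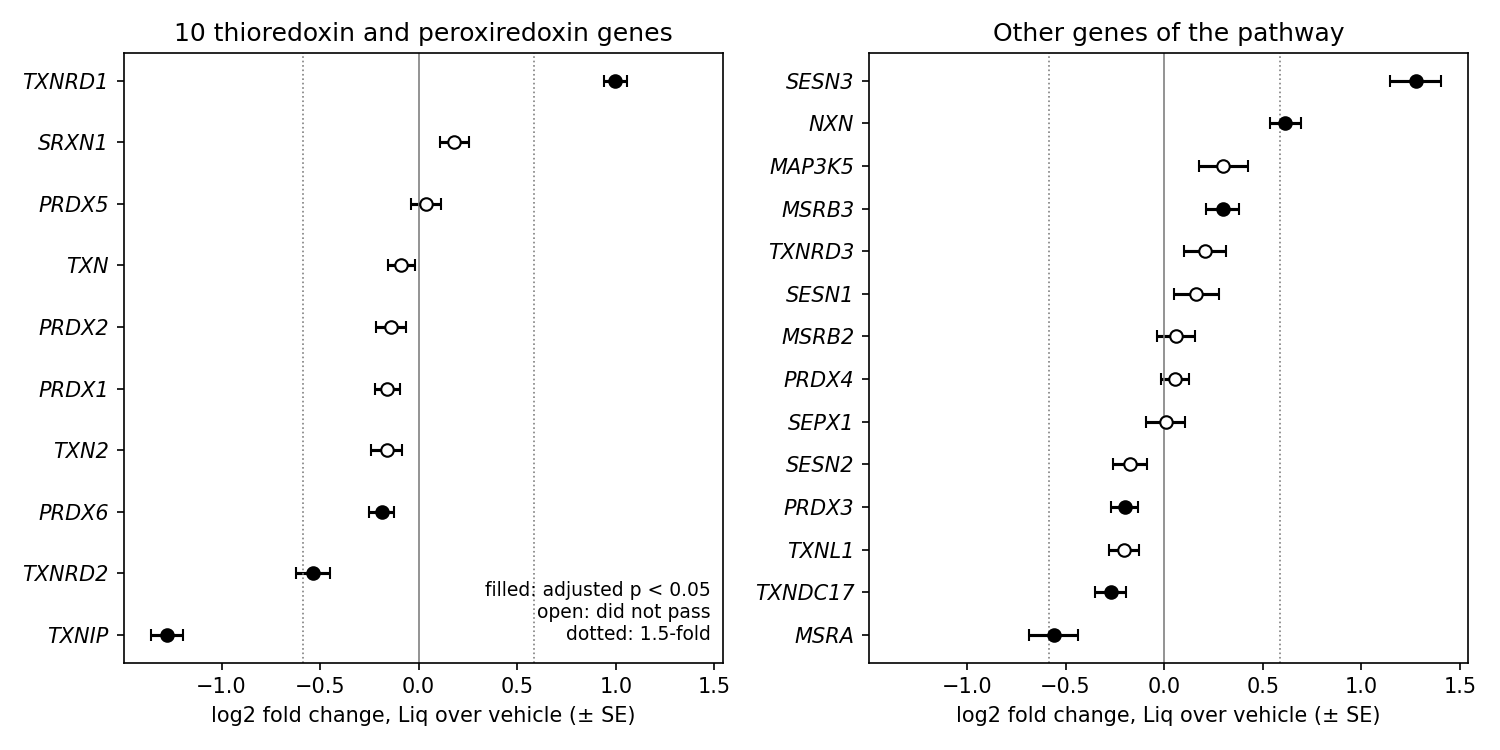
Log2 fold change (Liq over vehicle) with its SE for the 10 genes (left) and for the 14 tested other genes of the pathway (right), with filled points for an adjusted p-value under 0.05 and dotted lines at 1.5-fold. TXNRD1 at 1.00 and TXNIP at -1.28 lie beyond the dotted lines, and SESN3 at 1.28 and NXN at 0.61 do so among the other genes.

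Per length of the canonical transcript, PRDX1 was the most abundant of the 10 in vehicle, at 617 CPM per kb, followed by TXNRD1 (329), TXN (310), PRDX5 (268), PRDX6 (221) and PRDX2 (180). TXN2 (61.1), SRXN1 (54.2), TXNIP (27.1) and TXNRD2 (24.3 CPM per kb) were the lowest. No neighbours in this order had overlapping vehicle samples, whereas TXN and PRDX5 overlapped in Liq. In Liq, TXNRD1 took the first place at 657 CPM per kb against 553 for PRDX1, SRXN1 passed TXN2, and TXNIP became the lowest at 11.2. Which transcripts ES2 cells use cannot be read from counts per gene, so these levels rest on the chosen lengths.

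The level summed over the 10 genes was 3202 and 3189 CPM in vehicle and 4189 and 4372 CPM in Liq, a ratio of group means of 1.34. Scaling by library totals without TMM gave a ratio of 1.41. TXNRD1 alone made up 38.95% and 40.48% of the sum in vehicle and 58.55% and 59.85% in Liq. Without it, the other 9 genes summed to 1927 ± 40 CPM with vehicle and 1746 ± 13 with Liq (SD, n = 2). The 4 peroxiredoxins went from 1354 ± 42 to 1238 ± 10 CPM (SD, n = 2). The larger sum in Liq thus came from TXNRD1.

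Ratios of counts within a sample do not depend on library scaling, and they set partners of the system against each other. TXNRD1 had 26.1 and 27.7 counts for each count of TXNRD2 in vehicle, and 72.1 and 83.9 in Liq, a difference of 1.53 on the log2 scale. The ratio of TXNRD1 to its substrate TXN was 5.61 and 5.51 in vehicle and 11.4 and 12.3 in Liq, whereas that of mitochondrial TXNRD2 to TXN2 was 0.568 and 0.590 in vehicle and 0.446 and 0.448 in Liq. The balance of reductase to thioredoxin mRNA therefore moved upward for the cytosolic pair and downward for the mitochondrial pair, with no overlap of groups in either. The ratio of TXNIP to TXN was 0.354 and 0.333 in vehicle and 0.147 and 0.155 in Liq. SRXN1 to PRDX1 was 0.237 and 0.233 in vehicle and 0.2937 and 0.3002 in Liq, a difference of 0.34 on the log2 scale. PRDX6 to PRDX5 was 1.55 and 1.70 in vehicle and 1.27 and 1.51 in Liq. The ratios of TXN to TXN2 and of PRDX1 to PRDX2 overlapped between groups. The ratios are given as a description. An exact permutation test of 2 samples against 2 cannot give a p-value below 0.3333, and no test was run on them.

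**Figure D3:**
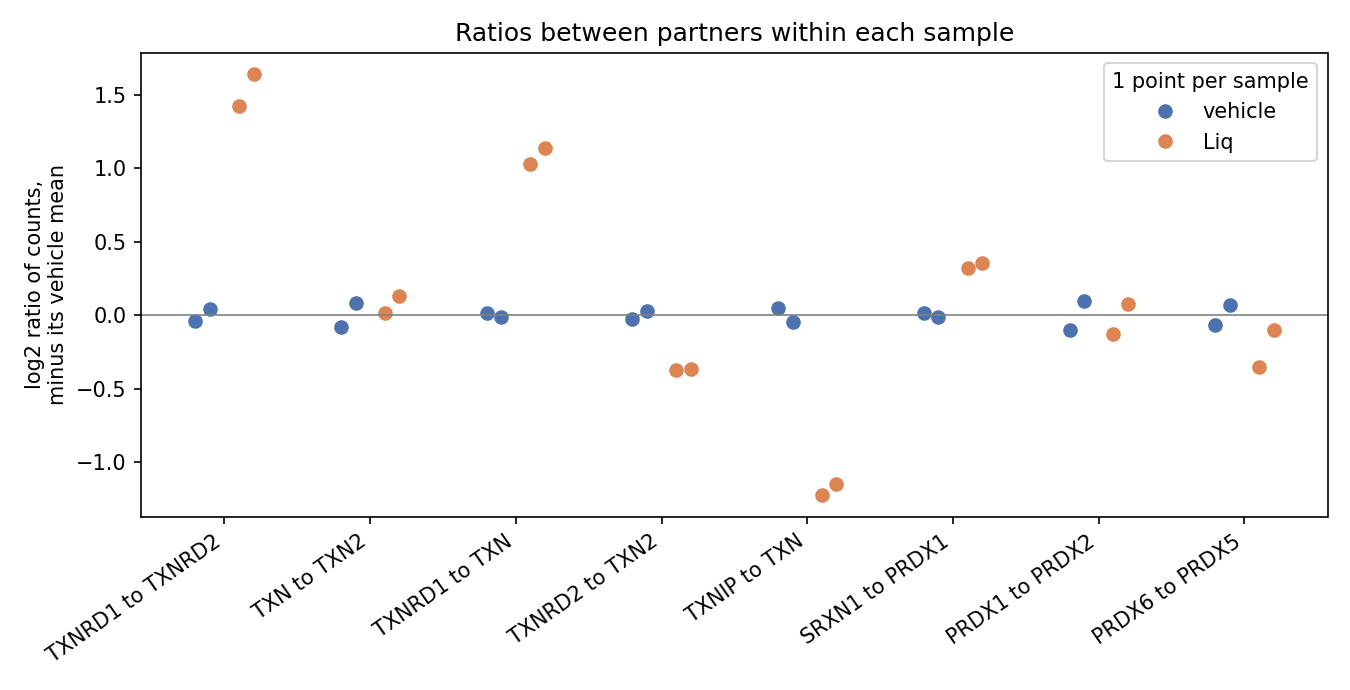
Log2 ratio of the counts of 2 genes within each sample, shown as the distance from its vehicle mean, with vehicle samples in blue and Liq samples in orange. Both Liq samples lie above both vehicle samples for TXNRD1 to TXNRD2, TXNRD1 to TXN and SRXN1 to PRDX1, and below them for TXNRD2 to TXN2, TXNIP to TXN and PRDX6 to PRDX5.

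Genes outside the 10 were taken from lists of the wider pathway. Of 15 other thioredoxin and peroxiredoxin pathway genes, 14 were tested, 3 rose and 3 fell, and their median log2 fold change was 0.057. Among all tested genes 12.6% rose and 11.3% fell. SESN3, a sestrin that protects against peroxide stress, had 222 and 280 counts in vehicle and 532 and 806 in Liq (log2 change 1.28 with an SE of 0.13, adjusted p = 2.871e-08 from edgeR). NXN, the thioredoxin-like nucleoredoxin, rose from 55.5 ± 2.1 to 85.0 ± 3.4 CPM (SD, n = 2), and MSRA, which reduces oxidized methionine with the help of thioredoxin, fell from 10.9 ± 1.8 to 7.41 ± 0.22 CPM (SD, n = 2). The sestrins did not move as a group, since SESN1 and SESN2 had log2 fold changes of 0.16 and -0.17 and did not pass. The remaining peroxiredoxins, named after their values were seen, were PRDX3 of mitochondria, which fell by 0.20 on the log2 scale (adjusted p = 0.03757 from edgeR), and PRDX4 of the endoplasmic reticulum, with a log2 fold change of 0.055 (adjusted p = 0.6168 from edgeR).

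The glutathione branch works in parallel with thioredoxin and has a reductase of its own. Of 9 tested glutaredoxins and glutathione peroxidases with glutathione reductase, 1 rose and 4 fell (median log2 fold change -0.10), where 12.6% of all tested genes rose and 11.3% fell. DESeq2 called 1 higher and 3 lower. GSR, the glutathione reductase, rose from 48.1 ± 2.1 to 69.6 ± 2.0 CPM (SD, n = 2), a log2 change of 0.53 (adjusted p = 2.026e-05 from edgeR). GPX1, the cytosolic glutathione peroxidase, fell from 66.7 ± 6.8 to 46.3 ± 3.4 CPM and the glutaredoxin GLRX from 46.7 ± 3.1 to 34.0 ± 0.3 CPM (SD, n = 2). GLRX2 and GLRX3 also fell, by 0.30 and 0.29 on the log2 scale.

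Both thioredoxin reductases among the 10 genes are selenoproteins, so further genes of that class were listed as well. The list did not hold every selenoprotein. A further reductase, TXNRD3, was counted with the other pathway genes and did not pass (log2 fold change 0.21, adjusted p = 0.1604 from edgeR). GPX1, which fell, and GPX4, which did not pass, were counted with the glutathione genes. Of 10 tested, 0 rose and 2 fell by edgeR, where 12.6% of all tested genes rose and 11.3% fell. At an unadjusted p-value 1 would rise, SELM (log2 fold change 0.57, adjusted p = 0.07308 from edgeR). DESeq2 called 0 upward and 1 downward. SELT, a thioredoxin-fold selenoprotein of the endoplasmic reticulum, fell from 85.7 ± 1.1 to 51.5 ± 4.2 CPM (SD, n = 2), a log2 change of -0.73 (adjusted p = 1.649e-07 from edgeR), and SEP15 fell by 0.20 on the log2 scale. Among 8 genes for selenocysteine synthesis and insertion, EEFSEC, the selenocysteine elongation factor, rose by 0.37 on the log2 scale, SEPHS1, a selenophosphate synthetase homolog, fell by 0.23, and 6 did not pass. SCLY, the third by p-value, had 9 and 4 counts in vehicle and 11 and 16 in Liq.

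Thioredoxin-fold proteins of the endoplasmic reticulum, many of which form and rearrange disulfide bonds in secreted proteins, were listed as a further group. The oxidases ERO1L and ERO1LB, which lack that fold, were included and did not pass. Of 21 tested, 6 rose, 0 fell and 15 did not pass (edgeR, with 0 also lower at an unadjusted p-value and 0 lower by DESeq2), with a median log2 fold change of 0.095, where 12.6% of all tested genes rose and 11.3% fell. DESeq2 called 6 of this group higher. The protein disulfide isomerases PDIA4, PDIA6 and PDIA3 rose by 0.55, 0.34 and 0.31 on the log2 scale (adjusted p = 4.63e-07, 0.0002711 and 0.0008175 from edgeR). Among 6 tested superoxide dismutase, catalase and NADPH oxidase genes, CAT, which encodes catalase, rose from 42.1 ± 1.5 to 51.04 ± 0.09 CPM (SD, n = 2), NOX4 fell from 7.10 ± 0.31 to 5.00 ± 1.07 CPM (SD, n = 2), and NOX5 rose at 17 and 5 counts in vehicle and 30 and 25 in Liq. In this group DESeq2 called 1 gene higher and 0 lower. SOD1 and SOD2 did not pass.

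Profiles over the 4 samples were compared by distance, as log2 CPM with a small constant added and centred on the vehicle mean. The genes nearest to TXNRD1 were SCD, LOC100507557, TRIM16, OSGIN1 and MEST, among genes with a mean of at least 1 CPM. SCD, a fatty acid desaturase, measured 495 CPM with vehicle and 984 with Liq, and TRIM16 at 9.63 and 19.6 CPM. The genes nearest to TXNIP were LPXN, XDH, CTGF, S100A2 and MPP4, of which CTGF, a secreted matrix protein, measured 1960 CPM with vehicle and 843 with Liq. With 4 samples in 2 groups this measure mostly picks genes with a similar fold change and small replicate spread. The added constant shrinks the profiles of genes at a low level, so their fold changes can differ more. LOC100507557 was at 0.586 CPM with vehicle and 1.71 with Liq (log2 change 1.55), and S100A2 at 4.19 and 1.41 CPM (log2 change -1.57).

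**Figure D4:**
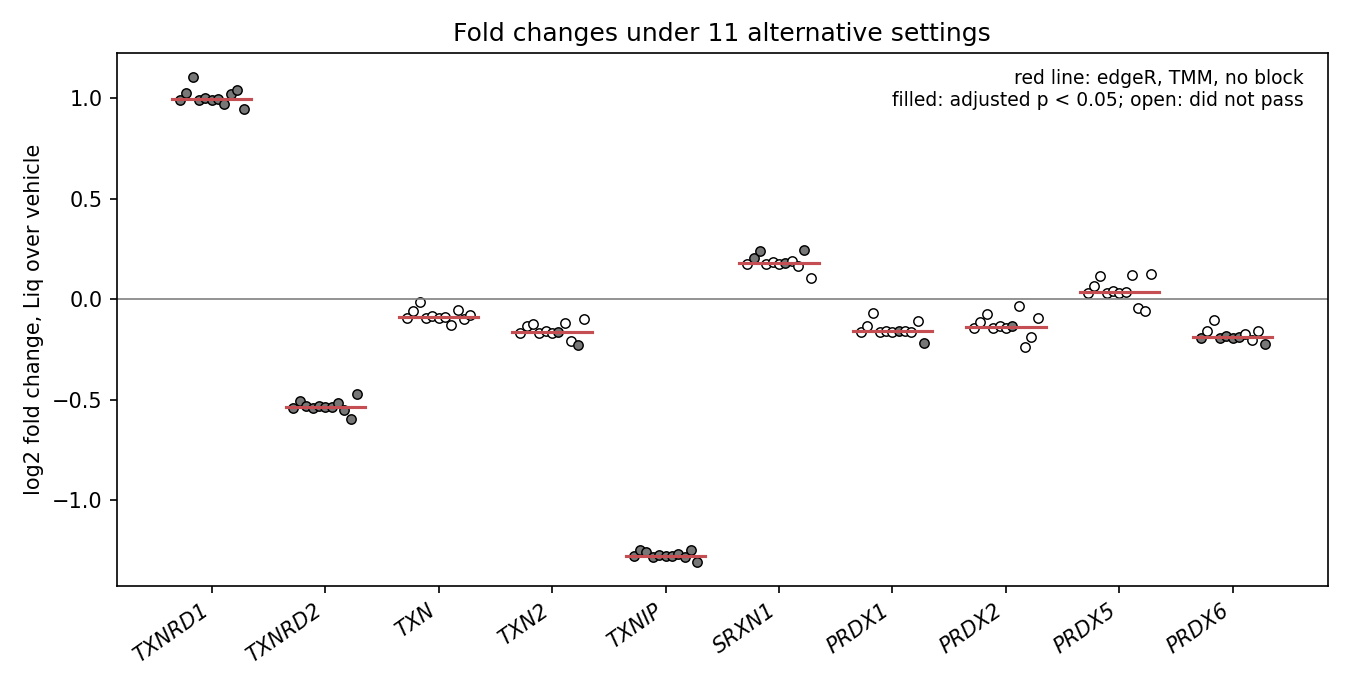
Log2 fold change of each of the 10 genes under 11 alternative settings (points, filled for an adjusted p-value under 0.05), with a red line for edgeR with TMM scaling and no block. TXNRD1, TXNRD2 and TXNIP are filled at all 11 settings, TXN and PRDX5 at none, and the others at 1 to 6.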

How the data were processed

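The authors prepared TruSeq libraries from total RNA of ES2 cells, sequenced 100-base single-end reads, aligned them to hg19 and, per the labels, used bcl2fastq 2.17.1.14, TopHat2 2.0.8b and HTSeq (version and strand setting not given in the sources used here). Each sample's deposited file holds raw counts by gene symbol, neither normalized nor pooled. HTSeq drops reads that align to several places or overlap several genes, which lowers the counts of genes with close copies. Reads not assigned to a gene (44.38% to 45.94% of the total, tallied in 5 closing lines) entered neither tests nor library sizes.

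The analysis used edgeR 4.0.16 under R 4.3.3. After filterByExpr (minimum count 10, minimum total 15) and TMM scaling, Liq and vehicle were compared by glmQLFit and glmQLFTest without a block, with Benjamini-Hochberg adjustment over 13546 genes. The SE is the log2 fold change divided by the square root of F, and 95% confidence intervals use it with the degrees of freedom of the test.  The biological coefficient of variation was 0.0575. Alternatives were RLE and upper-quartile scaling, loess offsets (span 0.3), other filters, DESeq2 1.42.0, the replicate number as a block, and each sample left out in turn. In 200 genes changed by 2-fold in counts simulated for Liq against vehicle, the test recovered 192 and DESeq2 175, with 13455 genes tested. Only 2-fold changes were simulated, and every simulated gene had the same biological coefficient of variation. The recovery therefore gives no measure of power for smaller changes or for genes that vary more between samples. False calls are not given.

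The 10 genes and the lists were chosen with earlier results of these data known. Genes named outside the 10 were, in each list, those changed by 1.5-fold that passed and the 3 with the smallest p-value, and the 5 profiles nearest to TXNRD1 and TXNIP. Others complete a family, overlap a gene or serve as markers. Positions and lengths are from GENCODE 44 mapped to GRCh37, and promoter windows from RefSeq (GRCh38.p14).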

Additional observations from a re-analysis of the deposited data

How the results depend on the processing

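TXNRD1, TXNRD2 and TXNIP kept their direction and passed in all 11 alternatives, with log2 fold changes of 0.95 to 1.11, -0.60 to -0.47 and -1.31 to -1.25. The number of the 10 genes that passed was 3 to 5 over the fits that each left out 1 sample, 8 with the replicate number as a block (2 higher and 6 lower, with 35.4% of all tested genes passing) and 7 at an unadjusted p-value (36.1% of all tested genes). Over the fits that left out 1 sample, 10.3% to 27.6% of all genes passed. With a 1.5-fold change added, the number was 2 to 3 over the fits that left out 1 sample, TXNRD2 joining without Liq replicate 1 (4.79% to 7.14% of all genes), and 1 at a 2-fold threshold (2.42% of all genes), where TXNRD1 lay just under it. The labels do not say whether same-numbered samples were paired. Over genes, their deviations from the group mean correlated at 0.0483, which with 2 samples per group cannot decide it. The block added TXN2, SRXN1, PRDX1 and PRDX2 to the genes that passed. PRDX5 ranged from -0.059 to 0.13 over the fits that left out 1 sample, being negative without vehicle replicate 2 (-0.045) and without Liq replicate 1 (-0.059), and never passed. The summed level of the 10 genes, Liq over vehicle, moved from 1.34 to 1.41 without TMM.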
